A study of Mus musculus with 6 samples.

Results

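The genes described here encode the Wnt ligands (19 genes), the Frizzled receptors (10 genes) and the secreted inhibitors of Wnt signaling of the Sfrp, Dkk and Wif families (8 genes). They are 37 of 22359 protein-coding genes on the mouse autosomes, X and Y in the GENCODE vM1 annotation of mm9. The set was fixed by gene name, and earlier results of these data were known when it was chosen. DNA methylation was profiled in mouse primary mesangial cells, the contractile support cells of the glomerulus, by methylated DNA immunoprecipitation sequencing (MeDIP-Seq), in which an antibody pulls down DNA fragments that carry methylated cytosine. The 6 samples comprised 3 controls and 3 samples of cells exposed to TGF-β1, a growth factor that drives matrix deposition in the kidney, at 10 ng/ml for 72 h. All the cells were grown in medium with high glucose (25.5 mM) and foetal bovine serum, and no genotype, strain or animal age was given, so whether the samples came from separate cultures or animals is not known and the tests measure the spread between these samples. Each sample had its own list of peaks, which are stretches where more fragments piled up than in the DNA around them. A peak was assigned to a gene when its summit, the base with the most fragments, lay in the gene or within 5 kb of it, and peaks sharing 1 bp or more were merged to form a region. This gave 383 peaks of 579787, in 127 regions of 170444.

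Wnt proteins are lipid-modified secreted ligands that bind the cysteine-rich domain of Frizzled receptors. In the canonical branch, binding together with the co-receptors Lrp5 or Lrp6 stops the destruction of β-catenin, and in the non-canonical branches Wnt5a and related ligands act on cell polarity and calcium. Secreted frizzled-related proteins (Sfrp) and Wif1 bind Wnt ligands outside the cell, whereas Dkk1 and Dkk2 block the Lrp co-receptors. Most of these genes have CpG-rich promoters, which in normal cells usually lack methylation, and methylation of Sfrp, Dkk and Wif1 promoters is best known from tumors. In the kidney, Wnt ligands are reexpressed in fibrosis.

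The sequences of 4 regions are shown on the strand of their gene in mm9, with each CpG, the site of methylation, in capitals and annotated untranslated stretches left out. They are a Wnt5a region near a transcript start, the Fzd6 region with the highest pileup, the Wnt16 region with the smallest p-value among regions higher after TGF-β1, and a Fzd7 coding region as an example of the Frizzled receptors. The Fzd7 region was added after its values were seen.
Wnt5a (chr14:29324852-29325008, plus strand): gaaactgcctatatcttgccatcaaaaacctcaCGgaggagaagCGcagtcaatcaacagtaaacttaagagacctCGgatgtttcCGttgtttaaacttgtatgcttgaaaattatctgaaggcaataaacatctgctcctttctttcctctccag
Fzd6 (chr15:38862897-38863136, plus strand): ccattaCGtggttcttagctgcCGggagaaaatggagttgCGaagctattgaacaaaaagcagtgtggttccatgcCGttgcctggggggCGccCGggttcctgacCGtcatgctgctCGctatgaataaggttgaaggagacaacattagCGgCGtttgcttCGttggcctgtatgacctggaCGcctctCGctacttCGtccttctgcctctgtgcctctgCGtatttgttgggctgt
Wnt16 (chr6:22248027-22248228, plus strand): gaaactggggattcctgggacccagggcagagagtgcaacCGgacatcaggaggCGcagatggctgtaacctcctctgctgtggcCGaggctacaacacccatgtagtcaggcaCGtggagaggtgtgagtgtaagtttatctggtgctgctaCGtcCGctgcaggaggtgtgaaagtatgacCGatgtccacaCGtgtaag
Fzd7 (chr1:59541333-59541519, plus strand): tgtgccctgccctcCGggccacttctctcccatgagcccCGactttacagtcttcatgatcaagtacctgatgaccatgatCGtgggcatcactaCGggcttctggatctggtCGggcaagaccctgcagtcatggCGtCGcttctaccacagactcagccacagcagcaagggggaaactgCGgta
The Fzd6, Wnt16 and Fzd7 stretches are coding sequence, whereas the Wnt5a stretch follows an alternative start of the gene. The Fzd6 stretch held 15 CpG sites in 240 bases, the Wnt16 stretch 8 in 202, the Fzd7 stretch 8 in 187 and the Wnt5a stretch 4 in 157.

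Depth differed with treatment, since each TGF-β1 library was deeper than each control library, and the effects of these cannot be told apart. The reads used for peak calling ranged from 9407103 to 11494356 in controls and from 12634300 to 13291419 after TGF-β1, the peaks per sample from 81473 to 100449 and from 100379 to 105520, and the lowest pileup called as a peak was 8 fragments in each control and 9 to 10 after TGF-β1. The share of peaks with a GC content of at least 55% ran across the groups, at 1.98%, 7.68% and 10.2% in controls 1 to 3 and 6.04%, 8.72% and 3.76% in TGF-β1 samples 1 to 3. Methylation peaks do not check which cells express a gene. Of the marker genes, a peak within 1 kb of a start was called in at least 3 samples at 0 of 6 mesangial and pericyte genes, 1 of 4 podocyte genes (Synpo), 0 of 4 endothelial, 0 of 4 tubule and 2 of 3 leukocyte genes (Ptprc and Cd68).

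Peaks were found at 33 of the 37 genes, mostly inside the genes and rarely at their starts. No sample had a peak at Wnt10a, Fzd4, Fzd10 or Sfrp5, that is a ligand, a pair of receptors and an inhibitor, while 19.8% of all protein-coding genes had none. The median was 0.381 peaks per 10 kb of gene and flanks per sample, against 0.517 over all protein-coding genes. By family it ran from 0.310 for the ligands to 0.978 for Wif1. Of the 127 regions, 75 had their highest summit in an intron, 18 in a coding exon, 8 in a 3′ untranslated exon, 13 in the upstream flank, 12 in the downstream flank and 1 in an exon of a non-coding transcript. A peak was called in all 6 samples at 24 regions (18.9%, against 24.5% of all regions) and in only 1 sample at 41 regions (32.3%, against 27.3%). Of the regions called in all the samples, 16 were intronic, 6 were in coding exons, and none of the 25 flank regions was among them.

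**Figure D1:**
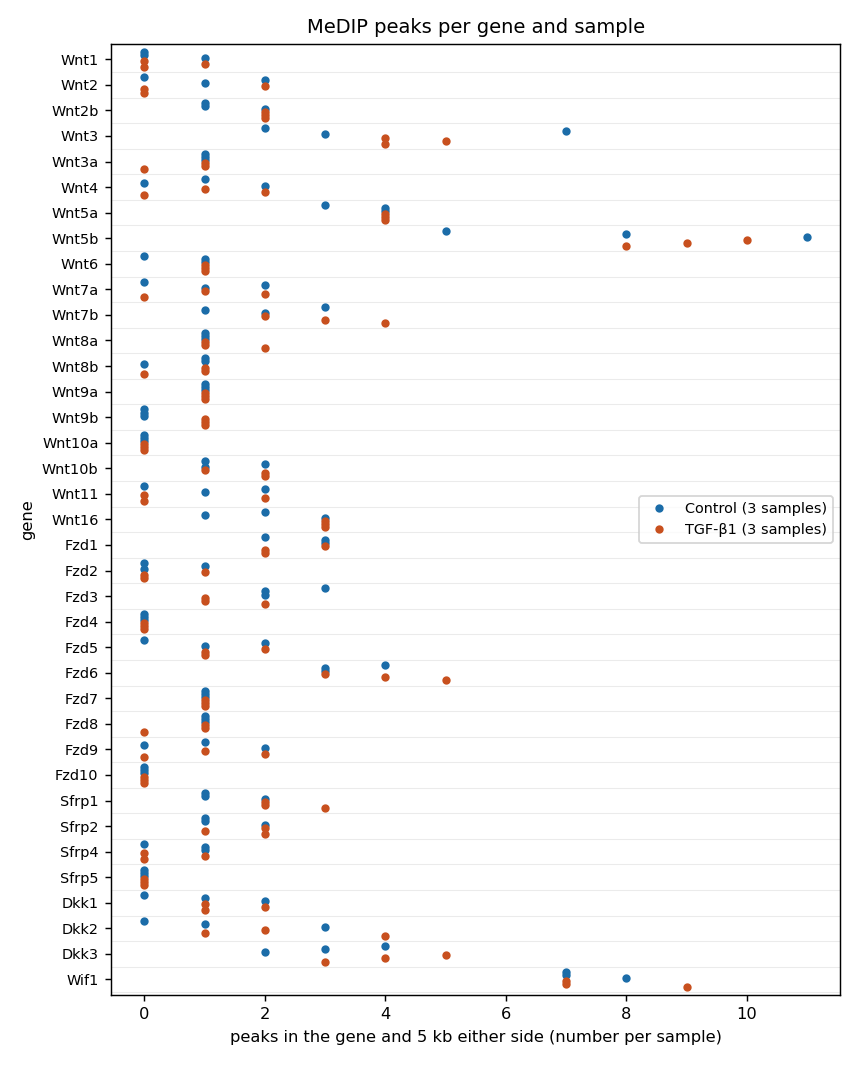
Peaks per sample in each of the 37 genes and 5 kb either side (horizontal axis, number of peaks), with controls in blue and TGF-β1 samples in orange, 3 points each. Wnt5b and Wif1 held the most peaks, 4 genes held none in any sample, and Wnt9b is the gene whose 3 TGF-β1 samples all lie above its 3 controls.

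Among the ligands, 18 of 19 genes had at least 1 peak, and the 70 ligand regions included 11 called in all the samples. The ligand peaks numbered 22, 35 and 36 in controls 1 to 3 and 36, 41 and 32 in TGF-β1 samples 1 to 3, so the groups overlapped. Wnt5b, a non-canonical ligand and the longest of the genes at 111788 bp, carried the most peaks, with 5, 8 and 11 in controls and 10, 9 and 8 after TGF-β1. Wnt3, a canonical ligand, had 2, 7 and 3 peaks in controls and 4, 5 and 4 after TGF-β1. Control 1 had the fewest peaks at both genes.

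Wnt5a, the best known non-canonical ligand, had 3, 4 and 4 peaks in controls and 4 in each TGF-β1 sample, or 1.17 peaks per 10 kb. Its most fragment-rich region, chr14:29322075-29322798, lay in the first intron of a longer transcript, at -2186 bp from the nearest start, and held 33 CpG sites. The pileup there was 34, 42 and 55 fragments in controls and 51, 43 and 37 after TGF-β1, so the groups overlapped. Wnt16, a ligand linked to bone mass, had 2, 1 and 3 peaks in controls and 3 in each TGF-β1 sample, or 1.13 per 10 kb. Wnt10b, at 0.915 per 10 kb, had 1 or 2 peaks in every sample.

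Wnt1, a canonical ligand, had 1 peak in control 3, in its upstream flank, and 1 peak in TGF-β1 sample 2, at its 3′ end. These were separate regions, each called in a single sample. Wnt7b, a ligand of the collecting duct in kidney development, had 5 regions, with 3, 1 and 2 peaks in controls and 2, 3 and 4 after TGF-β1. The Wnt7b region called in all the samples, chr15:85390210-85390761 in intron 1, had a pileup of 22, 26 and 39 in controls and 36, 32 and 44 after TGF-β1. The control range reached into the TGF-β1 range at both genes.

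Among the receptors, 8 of 10 genes had a peak, and a larger share of their peaks than of the ligands' peaks lay in coding sequence. Frizzled peaks numbered 12, 13 and 13 in controls and 13, 12 and 11 after TGF-β1. Their summits fell in coding exons in 25%, 38.5% and 53.8% of peaks in controls and 30.8%, 50% and 18.2% after TGF-β1, a mean of 36.0% over the samples, against 9.73% for the ligands and 13.7% for all protein-coding genes. The Frizzled genes are short with much of their length coding, so coding exons made up 8.08% of their gene and flank sequence against 3.11% over all genes. Relative to that share, coding summits were 4.46 times as frequent at Frizzled genes and 4.41 times at all genes. The same ratio was 3.31 for the ligands and 6.43 for the inhibitors, from 20 of 202 and 15 of 107 peaks over the 6 samples. A region called in several samples is counted in each of them. The coding share per sample ran from 3.1% to 13.9% for the ligands and from 4.55% to 26.7% for the inhibitors. No test was made of these ratios.

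Fzd1, Fzd5, Fzd7 and Fzd9 are encoded by a single coding exon, and each had a peak summit inside it, between 53.3% and 96.1% of the way along the coding sequence. At Fzd1 (chr5:4755789-4756352) the pileup was 19 and 26 in controls 2 and 3 and 14 and 25 in TGF-β1 samples 1 and 2, and no peak was called in control 1 or TGF-β1 sample 3. Fzd5 (chr1:64781831-64782466) had 20 and 41 in controls 2 and 3 and 17 and 32 in TGF-β1 samples 1 and 2, and none was called in the same remaining pair of samples. The missing calls thus fell in 1 sample of each group at both genes.

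The Fzd7 region (chr1:59540972-59541927), part of which is printed above, held the most CpG sites of the 127 regions, 37 (3.87 per 100 bp), while the density was highest in a Wnt3a coding region (6.90 per 100 bp). It was called in all the samples at a pileup of 17, 24 and 25 in controls and 19, 30 and 17 after TGF-β1, although the summit fell in the coding exon only in controls 2 and 3 and TGF-β1 sample 2 and outside it in the others. The Fzd9 coding peak was called in control 3 alone, at 23 fragments. The other single-exon receptors differed. Fzd2 and Fzd8 had more CpG sites per 100 bases of coding sequence than Fzd7 (8.42 and 8.91 against 7.23) and no coding peak in any sample, and Fzd10 (5.10) had no peak at all.

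Fzd6, a receptor tied to planar cell polarity, had 4, 3 and 3 peaks in controls and 3, 4 and 5 after TGF-β1. Its region in exon 4, within the coding sequence, chr15:38862638-38863334, with 29 CpG sites, had the highest mean pileup of the regions called in all the samples, at 52.2 fragments. The values were 30, 53 and 68 in controls and 58, 54 and 50 after TGF-β1, so control samples were both the lowest and the highest. A Fzd6 intron region, chr15:38855991-38856487, had 29, 30 and 41 in controls and 42, 36 and 38 after TGF-β1. Fzd1 had the most peaks for its length of the 37 genes, 1.74 per 10 kb, from a coding, a 3′ untranslated and an upstream region.

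**Figure D2:**
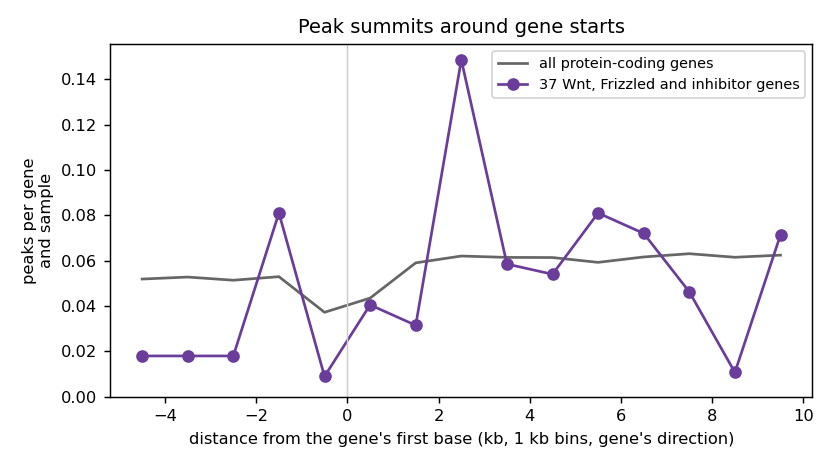
Peak summits per gene and sample (vertical axis) in 1 kb bins of distance from the first base of the gene (horizontal axis, kb), for the 37 genes (purple points) and all protein-coding genes (gray line). The 37 genes lie at 0.00901 in the last 1 kb before the start, against 0.0373 over all genes, at 0.0405 in the first 1 kb after it, against 0.0435, and at 0.149 between 2 and 3 kb after it, against 0.0621.

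The distance profile shows where these peaks sat relative to gene starts. Between 2 and 3 kb after the start, the 37 genes together had 2, 7 and 7 peaks in controls and 7, 7 and 3 after TGF-β1. The summits of the Fzd1, Fzd5 and Fzd7 coding regions lie in that bin. So do those of a Fzd1 3′ untranslated region, a Wnt7a coding region and intron regions of Wnt3 and Dkk1, so the bin is not made up of Frizzled coding sequence alone. Control 1 and TGF-β1 sample 3 had the fewest. This bin did not stand alone, since farther into the genes, beyond the range plotted, the bin centered 13.5 kb after the start held 0.152 summits per gene and sample, against 0.0611 over all genes, with 23 of the 37 genes long enough to reach it.

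Among the inhibitors, Wif1, which binds Wnt ligands directly, carried the most peaks. It had 7, 7 and 8 peaks in controls and 7, 7 and 9 after TGF-β1, and 5 of its 12 regions were called in all the samples. The pileup at the coding region in exon 5 of Wif1 (chr10:120520842-120521254) was 26, 32 and 35 in controls and 35, 20 and 37 after TGF-β1. Of the Sfrp genes, Sfrp2 had a coding region (chr3:83576895-83577517) with 23, 27 and 27 in controls and 28, 30 and 24 after TGF-β1, and Sfrp1 an intron 1 region (chr8:24526944-24527655) with 28, 18 and 29 in controls and 30, 26 and 25 after TGF-β1. Values of the groups overlapped at all of these regions.

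The Dkk genes had 4, 5 and 7 peaks in controls and 8, 7 and 8 after TGF-β1. Dkk3, whose product unlike Dkk1 and Dkk2 is not an established Wnt antagonist, had 4, 3 and 2 in controls and 5, 4 and 3 after TGF-β1. Its intron 4 region, chr7:119277609-119278654, was the only Dkk region called in all the samples, with 18, 21 and 15 in controls and 26, 22 and 25 after TGF-β1. Every TGF-β1 value there was above every control value before scaling, but scaled to the median of each sample the values overlapped (log2 fold change 0.22, SE 0.222). Dkk1 had no peak in control 1 and 1 or 2 in the other samples, and Dkk2 had 0, 1 and 3 in controls and 2, 1 and 4 after TGF-β1.

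Gene starts were mostly free of peaks, although most of them are CpG-rich. Promoters were classed by the ratio of observed to expected CpG in 500 bp windows. High meant a window with a ratio above 0.75 and a GC content above 55%, and low meant no window above 0.48. By this rule 27 of the 37 promoters were high, 8 intermediate and 2 low, whereas 48.4% of all promoters were high. A peak within 1 kb of a protein-coding transcript start was called in at least 3 samples at 3 genes (8.11%), against 13.1% of all protein-coding genes. Of the 27 high-CpG genes it was 1, Wnt5a, against 12.2% of all high-CpG genes. Peaks were counted at any protein-coding start, whereas the class was taken at the start of the longest transcript. The Wnt5a peak lay by an alternative start, in an intron of a longer transcript, and so not at the start that was classed. Promoter peaks numbered 2, 5 and 3 in controls and 2, 5 and 2 after TGF-β1 (3.33 ± 1.53 against 3.00 ± 1.73, SD, n = 3 each).

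The promoter regions in question were at Wnt5a, Wnt8a and Sfrp4. The Wnt5a region, chr14:29324713-29325238, lay 380 bp after an alternative start and had a pileup of 20, 31 and 32 in controls and 40, 33 and 37 after TGF-β1. These values did not overlap as counted, but scaled to the median of each sample they did, and the log2 fold change of 0.21 (SE 0.201) was not significant (adjusted p = 0.999, limma). Wnt8a, a ligand of early development with a low-CpG promoter, had 16, 25 and 35 in controls and 28, 34 and 29 after TGF-β1 at an intronic region 694 bp after a start, with overlapping groups. Both genes were thus called near a start in every sample.

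Sfrp4 had a single region, chr13:19715433-19715783 in exon 1, within the coding sequence, 538 bp after the start. It was called at 16 and 26 fragments in controls 2 and 3 and at 14 in TGF-β1 sample 2, and not called in control 1 or TGF-β1 samples 1 and 3. The 3 samples with the call held the largest shares of GC-rich peaks, and the Sfrp4 region has a GC content of 55.6%. Over the genome, the most frequent combination of exactly 3 samples was this one, with 1930 regions and a median GC content of 53.0%, against 47.9% over all regions. Wnt2, Wnt10b and Fzd9 had a promoter peak in 1 or 2 samples only.

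**Figure D3:**
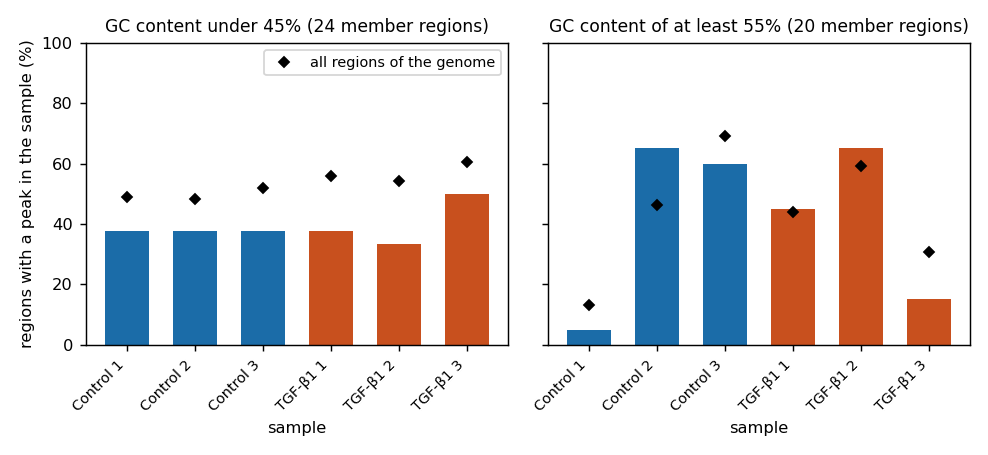
Share of regions with a peak in each sample (vertical axis, %) among regions with a GC content under 45% (left, 24 member regions) and of at least 55% (right, 20 member regions). Bars are the regions at the 37 genes, blue for controls and orange for TGF-β1, and diamonds are all regions of the genome. The GC-rich member regions were called 1, 13 and 12 times in controls 1 to 3 and 9, 13 and 3 times in TGF-β1 samples 1 to 3.

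GC content moved with the calls at these genes across both groups. Of the 20 member regions with a GC content of at least 55%, controls 1 to 3 called 1, 13 and 12 and TGF-β1 samples 1 to 3 called 9, 13 and 3, and over the genome these samples called 13.1%, 46.1%, 69.3%, 44.0%, 59.3% and 30.8% of such regions. Of the 24 member regions under 45% GC, they called 9, 9, 9, 9, 8 and 12. Of the 18 coding-exon regions, 11 had a GC content of at least 55%, and control 1 and TGF-β1 sample 3 each called 1 of them. The part of GC content in the calls at single genes was not tested.

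The comparison of control and TGF-β1 samples asked whether TGF-β1 changed methylation at these genes. Peaks per sample were 47, 63 and 69 in controls and 68, 71 and 65 after TGF-β1, or 59.7 ± 11.4 against 68.0 ± 3.00 (SD, n = 3 each), and the groups overlapped. The order turned when scaled to depth, at 5.75 ± 1.09 peaks per 1000000 reads in controls and 5.28 ± 0.367 peaks per 1000000 reads after TGF-β1. Per 1000 peaks of the sample the values were 0.654 ± 0.0668 and 0.664 ± 0.0459. By gene, the mean number of peaks was higher after TGF-β1 at 18 genes (48.6%, against 45.7% of all protein-coding genes), lower at 7 (18.9%, against 17.8%) and equal at 12.

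Wnt9b, a ligand that triggers nephron formation in the embryonic kidney, was the only gene with more peaks in every TGF-β1 sample than in every control, with 1 peak in each TGF-β1 sample and 0 in each control. That is 1 of 37 genes, and 3.13% of all protein-coding genes showed the same. No member gene had fewer peaks in every TGF-β1 sample, which 0.277% of all genes did. For a single gene, the exact permutation test (two-sided, 3 against 3) gave p = 0.1 for Wnt9b, the smallest p this design allows. Every gene whose groups do not overlap gives this p, so it adds nothing to the pattern by which Wnt9b was named.

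The Wnt9b peaks formed one region, chr11:103588315-103588629, whose summit lay 171 bp past the 3′ end of the gene. It was the only one of the 127 regions called in all the TGF-β1 samples and no control, and 0.948% of all regions were. The reverse pattern, all the controls and no TGF-β1 sample, was seen at 0 member regions and at 0.233% of all regions. The pileup was 16, 15 and 15 fragments in the TGF-β1 samples, below the median peak of those samples (22, 22 and 23), and the enrichment over the surrounding 10 kb was 5.51-, 4.86- and 4.73-fold. The call was lost where peaks were held to a fold enrichment of at least 5 or to the same number of peaks in every sample. In the latter case a Wnt2b 3′ region took its place as the 1 region called only after TGF-β1. The control pileup at uncalled regions is not given in peak lists, so the size of the difference could not be measured.

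**Figure D4:**
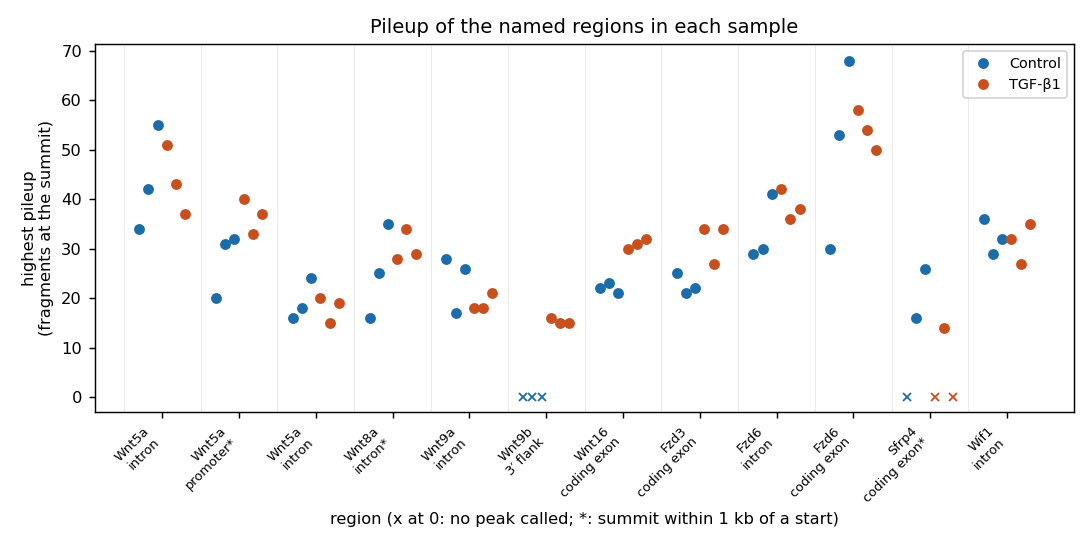
Highest pileup (vertical axis, fragments at the summit) of the 12 named regions in each sample, controls in blue and TGF-β1 in orange, with a cross at 0 where no peak was called. The Wnt9b region was called in the TGF-β1 samples alone at 15 to 16 fragments, and most other regions show overlapping groups.

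The 24 member regions called in all the samples allowed a test of pileup. Regions without a peak in any 1 of the samples were outside this test, so it could not detect a peak gained or lost. In limma on log2 pileup centered on the median of each sample, over all 41744 such regions, 0 member regions reached an FDR below 0.01 with an absolute log2 fold change above 2, and 0 regions in all (0%). The smallest adjusted p of a member was 0.999. At an unadjusted p below 0.05, 0 members were higher (1.96% of all regions) and 1 was lower (2.22%). The log2 fold changes of the members ran from -0.51 to 0.27, with a median of -0.025 against -0.0047 over all regions, and 10 of 24 were above 0. Scaling by reads in place of the median moved the regions with an unadjusted p below 0.05 from 818 higher and 926 lower to 212 higher and 2387 lower over the genome, and left 0 higher and 1 lower among the members. On the centered scale every TGF-β1 value was above every control value at 1 member region, where 4.33% of all regions did so, and below at 2, where 4.96% of all regions did so.

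**Figure D5:**
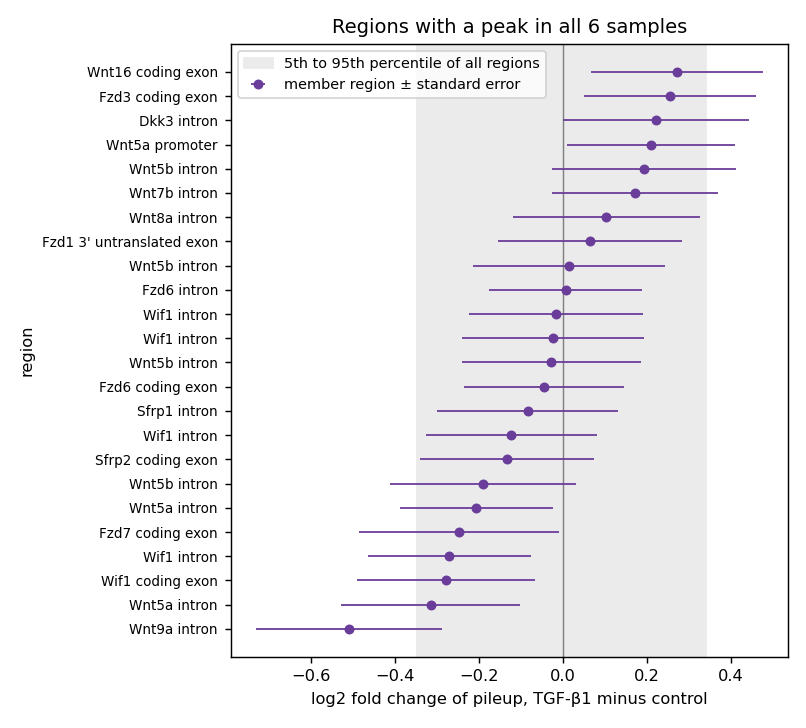
Log2 fold change of pileup (horizontal axis, TGF-β1 minus control, centered on the median of each sample) with its standard error for the 24 member regions called in all the samples, 3 samples per group. The gray band is the 5th to 95th percentile of all 41744 regions, from -0.35 to 0.34, and 23 of the 24 members lie inside it, Wnt9a being the exception.

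The member with an unadjusted p below 0.05 was a region in intron 1 of Wnt9a, a ligand of joint and limb development. The pileup at chr11:59123525-59123984 was 28, 17 and 26 fragments in controls and 18, 18 and 21 after TGF-β1. Control 2 was at the level of the treated samples as counted, while on the centered scale every TGF-β1 value was below every control value. The log2 fold change was -0.51 (SE 0.221, adjusted p = 0.999, limma). The Wnt9a region itself was no longer below this threshold without control 1, TGF-β1 sample 1 or TGF-β1 sample 2, without both control 1 and TGF-β1 sample 3, or with regions called in at least 3 samples. The next in this direction were an intron 4 region of Wnt5a (chr14:29331633-29332068; 16, 18 and 24 in controls, 20, 15 and 19 after TGF-β1; log2 fold change -0.32, SE 0.213) and an intron 2 region of Wif1 (chr10:120484591-120485145; 36, 29 and 32 in controls, 32, 27 and 35 after TGF-β1; log2 fold change -0.27, SE 0.194), neither below 0.05 even before adjustment. The Wif1 region was the other one at which the centered TGF-β1 values were all below the controls, although the fragments as counted overlapped.

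In the other direction, a region in the last coding exon of Wnt16 (chr6:22247825-22248362) had a pileup of 22, 23 and 21 fragments in controls and 30, 31 and 32 after TGF-β1. All the TGF-β1 values were higher as counted, but per 1000000 reads they were 2.13, 2.44 and 1.83 against 2.35, 2.45 and 2.41, so the ranges overlapped. On the centered scale this was the region at which the groups did not overlap in the upward direction, so that reading depends on the scaling. The centered log2 fold change was 0.27 (SE 0.205, adjusted p = 0.999, limma). A coding region in exon 4 of Fzd3, a receptor needed for axon growth (chr14:65853803-65854275) had 25, 21 and 22 in controls and 34, 27 and 34 after TGF-β1, with a log2 fold change of 0.26 (SE 0.206, adjusted p = 0.999, limma). The Fzd3 values per 1000000 reads were 2.42, 2.23 and 1.91 against 2.67, 2.14 and 2.56, which overlapped as well.

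Other genes of the Wnt pathway, 51 matched by name and comprising co-receptors, Dishevelled, the β-catenin destruction complex, Tcf factors and modulators, had more peaks than the ligands, receptors and inhibitors. Their median was 0.746 peaks per 10 kb per sample, against 0.381 for the 37 genes and 0.517 over all genes, and 50 of 51 had a peak. A promoter peak in at least 3 samples was called at 12 of the 51, where 13.1% of all genes had one, including the co-receptors Lrp5 and Lrp6, the destruction complex scaffolds Apc and Axin2, and Ctnnb1, which encodes β-catenin. In gene and flanks together, none of them had more peaks, or fewer, in every TGF-β1 sample than in every control. At the promoter Lgr6, a receptor for R-spondins that was named here after its values were seen, had 0 peaks in each control and 1 in each TGF-β1 sample. The share of all protein-coding genes with this promoter pattern was not counted, and each TGF-β1 library was deeper than each control library. No test was made between the lists.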

How the data were processed

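Genomic DNA was sheared, immunoprecipitated for methylated cytosine and sequenced by the authors, who mapped reads to mm9 with BWA and called peaks in each sample with MACS2 (version 2.1.0.20150731, q below 0.01, no input control). The deposited lists give each peak's pileup (signal: fragments at the summit, not depth normalized), fold enrichment over background, -log10 p-value and -log10 q-value. Here peaks were joined into regions and placed on the GENCODE vM1 annotation of the matching genome build, no peak ending past a chromosome end. Pileup of regions called in all samples was compared in limma 3.58.1 (R 4.3.3, trend, Benjamini-Hochberg over all regions). The step was tried on simulated regions with independent noise and shifts larger than any seen at the members. That trial does not show that small changes could be found. The design named this pileup test because peak lists hold no read counts.

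The members and lists were chosen with earlier results of these data known. Named regions were those called in 3 samples of 1 group alone, the 3 smallest p-values per direction, promoter regions in at least 3 samples, and the 3 highest mean pileups. Named genes were those with the most peaks or none, those not overlapping between groups, and Wnt1, Wnt7b and Sfrp4, which the study's lists hold. Marker genes of mesangial, podocyte, endothelial, tubule and leukocyte cells and other Wnt pathway genes were counted. Alternatives changed thresholds, windows, joining, scaling and samples. Some of them also changed the number of member regions in the limma test, from 24 to as many as 63. Groups of fewer samples separate more easily by chance. For regions whose groups did not overlap in pileup, the share over all regions was counted in the main setting only. The sequences of some named regions are not reported here.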

Additional observations from a re-analysis of the deposited data

How the results depend on the processing

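With a sample left out, the number of regions called only after TGF-β1 ran from 1 to 3, Wnt9b among them. It was 3 without control 3 (with Wnt2b and Wnt16) and 3 without TGF-β1 sample 2 (with Wif1 and Sfrp1). A region called in every TGF-β1 sample and no control keeps that pattern when samples are left out, so Wnt9b had to stay. Counts of such regions, and of genes with more or fewer peaks in every TGF-β1 sample, could only stay or rise. The number of regions called only after TGF-β1 was 2 at a -log10 q of at least 5, with Wnt16, and 0 once the fold enrichment had to reach 5. Genes with more peaks in every TGF-β1 sample numbered 2 at a -log10 q of at least 5, 0 at that fold enrichment, 2 with 2 kb flanks (Sfrp1), and 1 to 4 with a sample left out (4 without control 3, 2 without control 2). Regions called only in controls ran from 0 to 1 (Fzd3 without control 2, Wnt3 without control 3), and genes with fewer peaks in every TGF-β1 sample from 0 to 1 (Fzd3 without TGF-β1 sample 3). An alternative chosen after seeing the data left out control 1 and TGF-β1 sample 3, whose peaks had the lowest GC-rich shares. It gave 2 regions called only after TGF-β1 (Wnt9b and Dkk3), 1 only in controls (Wnt2b), 2 genes with more peaks (Wnt9b and Dkk3) and 1 with fewer (Fzd3). The difference in peaks per sample, 8.33, became 0.667 at that fold enrichment, -1.33 with equal peak numbers, and ran from 2 to 13 with a sample left out, 2 without control 1. The difference in promoter peaks, -0.33, ran from -1.33 to 0.5.

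In limma at an unadjusted p below 0.05, regions called in at least 3 samples gave 2 of 63 members higher and 0 lower. Of all 98681 such regions, 2570 were higher and 1427 lower. Leaving out a sample gave 0 to 2 lower (2 without TGF-β1 sample 3), and no setting gave a call at the FDR. Members with all log2 values higher after TGF-β1, 1 of 24, became 0 by reads and 2 by fold enrichment. They were 4 of 63 with regions in at least 3 samples. Leaving out a sample gave 1 to 4 (4 of 25 without control 2). Those all lower, 2, rose to 4 of 32 without control 1 and 4 of 25 without TGF-β1 sample 1. Without both doubted samples they were 5 of 38. These counts were added after seeing the data. The log2 fold change of the Wnt8a region, 0.10, ran from -0.13 (without control 1) to 0.28 with a sample left out, also turning to -0.01 without TGF-β1 sample 2, and was -0.0597 without both doubted samples. That of the Fzd6 coding region, -0.04, ran from -0.32 to 0.12 (without control 3), also turning to 0.11 without control 2 and 0.03 without TGF-β1 sample 3. That of the Fzd6 intron region, 0.01, ran from -0.0835 (without TGF-β1 sample 1) to 0.0736, also turning to -0.0261 without control 1, and became -0.0841 by reads, -0.0925 by fold enrichment and -0.0177 with regions in at least 3 samples. A GC correction, also chosen after seeing the data, left 0 higher and 1 lower. The cause was not tested for any of these changes.

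Same-numbered samples did not deviate together (r = -0.046, 0.043 and -0.13), so replicate numbers were not taken as pairs. The differences of 8.33 peaks and -0.33 promoter peaks equal the means of the same-numbered differences, so the replicate block could not change them. With that block, limma gave 0 member calls at the FDR, 0 higher and 1 lower. Pileup is not normalized for depth, and peak lists hold no value for an uncalled region.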
